A study of Mus musculus with 3 samples.

Results

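RAB proteins are small GTPases that mark the membranes of a cell and bring vesicles to the right place. The set described here holds 61 protein-coding genes of the mouse annotation GENCODE M21, of 22028 protein-coding genes and 55536 genes in all. They were chosen by their symbol, the letters Rab followed by a number and at most a short suffix, and by having a row in the gene and transcript tables of all 3 libraries. Of these, 59 encode RAB GTPases. The other 2 carry the name only: Rab5if is named for an interaction with Rab5, and Rab3ip encodes Rabin8, an exchange factor that activates Rab8.

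The libraries are polyA RNA-seq of primary effector memory CD4-positive T cells with an alpha-beta receptor. Effector memory cells are antigen-experienced helper T cells. The cells came from 1 adult male C57BL/6J mouse of 7 months, and the labels name no treatment, genotype change or second group. The 3 libraries are technical replicates 1, 2 and 3 of 1 biological replicate, so there is no comparison between conditions, and every SD and test below measures spread between libraries of the same mouse. Gene counts summed to 16251564, 14878641 and 14152590 in replicates 1, 2 and 3. Levels are TPM, a share of all transcripts that is already scaled for transcript length, and values given as mean ± SD are over n = 3 libraries. All 11 genes of a T cell marker list reached 100 TPM or more, among them Cd4 at 476 ± 4.74 and Cd3e at 679 ± 29.2 TPM, beside Cd8a at 0.0433 ± 0.0153 and Cd8b1 at 4.16 ± 0.887 TPM. Summed over each list, B cell markers (7 genes) reached 0.99 to 2.04 TPM, neutrophil markers (5 genes) 0.63 to 2.04, mast cell and basophil markers (6 genes) 0.83 to 3.39, platelet and erythroid markers (8 genes) 4.15 to 8.37 and monocyte and macrophage markers (6 genes) 3.05 to 6.21 in the 3 libraries. The dendritic list (5 genes) summed to 2.82 to 3.07 TPM and the list of stroma, endothelium and epithelium (6 genes) to 0.67 to 2.15 TPM. Of the 43 genes of these 7 lists, 38 had a mean under 1 TPM, the highest was Hbb-bs, a haemoglobin chain, at 3.90 ± 2.57 TPM, and Cma1 and Ppbp had 0 counts. In bulk RNA, fewer cells of a type and less RNA per cell cannot be told apart.

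A RAB protein is switched on when an exchange factor replaces its bound GDP by GTP, and switched off when a GTPase-activating protein makes it hydrolyse that GTP. In the active form it sits on a membrane through lipid groups on cysteines at its end and recruits effectors such as tethers and motors. In the inactive form, a GDP dissociation inhibitor can lift it off the membrane and carry it back. In T cells, RAB proteins of recycling endosomes return receptors to the contact with an antigen-presenting cell, and Rab27a helps cytotoxic lymphocytes to dock their granules.

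Both hallmarks can be read in the coding sequences. The first is the loop that holds the phosphates of the nucleotide. It was searched, in frame and on the coding strand, as GGN, any 12 bases, GGN and then AAA or AAG. All 59 GTPases had a transcript with this pattern and with at least 1 cysteine codon (TGT or TGC) among its last 5 codons, and Rab5if and Rab3ip had neither. Among 21473 other protein-coding genes, taking the longest complete coding sequence of each, 12.96% held the loop pattern, 12.4% held such a tail and 1.57% held both. A member passed if any of its transcripts held both, whereas each other gene was scored on 1 sequence, so the shares are not measured alike. The loops of 7 members that the results below turn on are shown here, 45 bases each from GENCODE M21 transcripts, with the pattern in capitals.
Rab8b: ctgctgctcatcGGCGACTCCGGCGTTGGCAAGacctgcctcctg
Rab8a: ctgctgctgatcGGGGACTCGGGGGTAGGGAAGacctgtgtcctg
Rab11b: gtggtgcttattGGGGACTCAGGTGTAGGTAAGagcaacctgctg
Rab11a: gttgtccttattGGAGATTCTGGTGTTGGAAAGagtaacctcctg
Rab5a: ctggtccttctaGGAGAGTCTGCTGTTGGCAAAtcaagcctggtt
Rab7: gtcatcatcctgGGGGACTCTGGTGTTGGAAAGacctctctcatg
Rab27a: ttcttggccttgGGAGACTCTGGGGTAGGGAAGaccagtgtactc
The last 30 coding bases of the same genes follow, with cysteine codons in capitals.
Rab8b: aagaccagtttcttccgcTGTtctctgctt
Rab8a: aggaccagcttcttccggTGCagtctcctg
Rab11b: cccaacaagctgcagTGCTGCcagagcctg
Rab11a: aagccaaaggtgcagTGCTGTcagaacatc
Rab5a: cagccagccagaagccagTGTTGTagtaac
Rab7: gccaaggcctccgcagaaagcTGCagtTGT
Rab27a: gaggagaaggagaaggggttgTGTggcTGT
The loops differ in some bases even between close paralogs while the pattern is kept, and the tails come in several kinds. Over the 59 GTPases, 15 ended in 2 cysteine codons, 20 in cysteine, another codon and cysteine, as Rab7 and Rab27a do, and 15 had 2 or more in another arrangement, as Rab11a, Rab11b and Rab5a do. A single cysteine codon in the last 5 was found in 9, among them Rab8a and Rab8b.

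Most of the family was detected. Of the 61 members, 41, or 67.2%, had 1 TPM or more in every library, beside 45.5% of all protein-coding genes. A mean of 10 TPM or more was reached by 36 members (59.0%, beside 34.2%), and a mean of 100 TPM or more by 13 (21.3%, beside 7.82%). The members' median was 17.5 ± 0.193 TPM, and that of the 59 GTPases 15.9 ± 1.42 TPM, beside 0.720 ± 0.131 TPM over all protein-coding genes. Together the GTPases held 3088 ± 248 TPM. At the low end, 18 GTPases had a mean under 1 TPM, and 4 of them (Rab17, Rab25, Rab39 and Rab9b) had 0 counts in all 3 libraries. A count of 0 allows up to 3 counts, or 0.185, 0.202 and 0.212 CPM (counts scaled to the library total) in replicates 1, 2 and 3, and this limit covers counting error only.

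**Figure D1:**
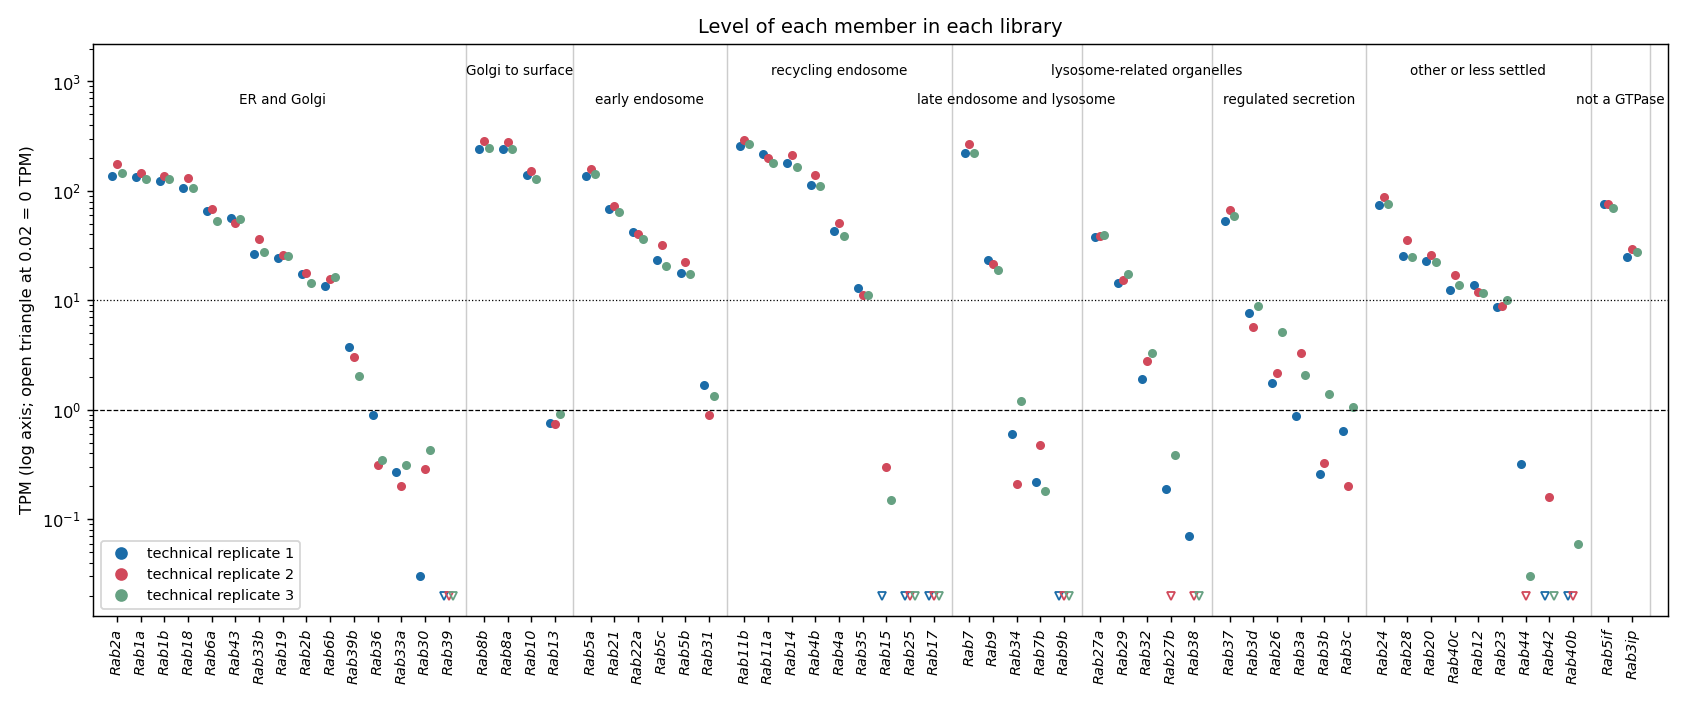
TPM of each of the 61 members (log axis) in the 3 technical replicates, one coloured point per library, grouped by compartment and ordered by mean within it; dashed and dotted lines mark 1 and 10 TPM, and open triangles mark 0. The 13 members with a mean of 100 TPM or more lie in the groups ER and Golgi, Golgi to surface, early, recycling and late endosome, and none lies in those of regulated secretion or lysosome-related organelles.

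The 13 GTPases at 100 TPM or more were Rab11b, Rab8b, Rab8a, Rab7, Rab11a, Rab14, Rab2a, Rab5a, Rab10, Rab1a, Rab1b, Rab4b and Rab18. Their order was only partly resolved. Of 58 neighbouring pairs in the order of mean TPM, 51 had library ranges that overlapped. The 7 steps without overlap came after Rab7, Rab18, Rab24, Rab43, Rab27a, Rab35 and Rab3d. Of the 51 overlapping pairs, 15 nevertheless had the same gene ahead within each of the 3 libraries. At the top, Rab11b was ahead of Rab8b, and Rab8a of Rab7, in all 3, whereas Rab8b and Rab8a crossed.

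Transport out of the endoplasmic reticulum and through the Golgi was the largest group by number, with 15 genes. Of these, 11 had 1 TPM or more in every library, their median was 25.3 ± 0.933 TPM, and they held 24.0% ± 0.145 of all RAB GTPase TPM. Rab2a, a Golgi RAB that recruits tethering proteins, was highest with 138, 177 and 146 TPM in replicates 1, 2 and 3 (ENSMUSG00000047187.9, chromosome 4, 8535644 to 8607778, GRCm38/mm10). Its values in replicates 1 and 3 lay close together, and replicate 2 was higher. Rab1a and Rab1b, which act between the endoplasmic reticulum and the Golgi, measured 133, 145 and 129 TPM and 122, 138 and 129 TPM. Rab18, a RAB of the endoplasmic reticulum and lipid droplets, had a mean of 114 ± 14.5 TPM, and Rab6a, which serves retrograde traffic at the Golgi, 62.1 ± 8.43 TPM. Rab43, Rab33b, Rab19, Rab2b and Rab6b ranged from 15.1 to 54.2 TPM. Rab39b stood at 2.93 ± 0.844 TPM, and Rab36, Rab33a, Rab30 and Rab39 were under 1 TPM.

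The small group for the step from the Golgi to the surface was the highest per gene, with a median of 196 ± 16.9 TPM over 4 genes and 21.1% ± 0.193 of RAB GTPase TPM. Rab8b (ENSMUSG00000036943.9, chromosome 9, 66843664 to 66919687) measured 241, 288 and 249 TPM and Rab8a (ENSMUSG00000003037.16, chromosome 8, 72161200 to 72183904) 241, 279.8 and 239 TPM. Both carry cargo to the plasma membrane, and their values crossed: Rab8a was marginally ahead in replicate 1 and Rab8b in the other two. Rab10, a relative with a role in exocytosis and in the supply of membrane to the surface, had 139, 151 and 128 TPM. An antisense gene, Rab10os, overlaps its locus. The strand setting of the counts is not given, so reads of the pair cannot be told apart. Rab13, known for tight junctions in epithelia, had 0.80 ± 0.0954 TPM and was under 1 TPM in all 3 libraries.

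On endosomes, the 9 recycling endosome genes held 27.1% ± 0.635 of RAB GTPase TPM, the largest share of any group on this scale, and 6 of the 9 had 1 TPM or more in every library. The lead rests on transcripts of Rab11b and Rab11a that do not encode the whole GTPase. Over complete coding transcripts, defined with the transcripts further on, recycling genes held 12.4% ± 0.311, early endosome genes 12.05% ± 0.145 and late endosome genes 12.3% ± 0.146, behind ER and Golgi with 26.8% ± 0.639 and Golgi to surface with 25.3% ± 0.422. That restriction cannot lower Rab8b or Rab10, which have 1 annotated transcript each, whereas Rab11a has 9 and Rab14 13. These shares therefore depend in part on the annotation. By estimated counts, not scaled for length, recycling genes held 17.5% ± 0.133, behind Golgi to surface with 33.9% ± 0.512 and ER and Golgi with 23.7% ± 0.354. Rab11b (ENSMUSG00000077450.13, chromosome 17, 33742484 to 33760530), which with Rab11a directs slow recycling, measured 259, 289.6 and 269.9 TPM. Rab11a (ENSMUSG00000004771.12, chromosome 9, 64715299 to 64737758) measured 217, 202 and 181 TPM, and Rab14, which acts between the Golgi and endosomes, 181, 214 and 166 TPM. Rab11b lay above both in every library. Of the RABs of fast recycling, Rab4b stood at 113, 141 and 112 TPM and Rab4a at 42.7, 50.5 and 38.7 TPM, with no overlap. Rab35, a recycling RAB at the plasma membrane, had 11.8 ± 1.08 TPM and Rab15 0.150 ± 0.150 TPM. The RABs of epithelial recycling, Rab17 and Rab25, were at 0 counts.

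On early endosomes, Rab5a, which drives their fusion, stood at 136, 157 and 142 TPM (ENSMUSG00000017831.8, chromosome 17, 53479234 to 53507680). Rab21, known for the traffic of integrins, had 68.3 ± 4.41 TPM, Rab22a 39.8 ± 2.92 TPM, Rab5c 25.3 ± 5.74 TPM and Rab5b 19.3 ± 2.92 TPM, and Rab31 had 1.30 ± 0.391 TPM. The 6 genes held 9.68% ± 0.0725 of RAB GTPase TPM. The late endosome group rested on 1 gene. Rab7 (ENSMUSG00000079477.9, chromosome 6, 87999106 to 88045270), which brings late endosomes to lysosomes, measured 222, 267 and 224 TPM, with replicate 2 above the other two. Rab9, which returns receptors from late endosomes to the Golgi, followed at 23.3, 21.6 and 18.9 TPM. Rab34, Rab7b and Rab9b had mean levels of 0.670, 0.293 and 0 TPM. The group's share was 8.42% ± 0.144, although its median was 0.760 ± 0.386 TPM.

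RABs of lysosome-related organelles and of regulated secretion were lower and held 1.86% ± 0.195 and 2.38% ± 0.244 of RAB GTPase TPM. Rab27a (ENSMUSG00000032202.11, chromosome 9, 73044854 to 73097629), which docks lytic granules and melanosomes, measured 37.6, 38.9 and 39.5 TPM, among the narrowest spreads of the set. Rab29 had 14.3, 15.3 and 17.4 TPM, Rab32 1.91, 2.78 and 3.30 TPM and Rab38 1 count in all. Among secretory RABs, Rab37 (ENSMUSG00000020732.13, chromosome 11, 115091431 to 115162236), which is known from secretory granules, was highest at 53.2, 66.8 and 59.0 TPM, and its 3 values lay above every other gene of that group. The Rab3 genes, best known from synaptic and endocrine vesicles, were low: Rab3d had 7.70, 5.68 and 8.81 TPM and Rab3a 0.870, 3.29 and 2.07 TPM, while Rab3b and Rab3c had means of 0.663 ± 0.639 and 0.630 ± 0.425 TPM. Rab26 had 1.76, 2.17 and 5.18 TPM, and its locus overlaps Traf7 on the same strand.

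Among the 9 genes with other or less settled roles, Rab24, linked to autophagy, was highest at 74.0, 87.2 and 76.2 TPM. Rab28, known from cilia, had 28.5 ± 5.85 TPM, Rab20, known from phagosomes, 23.7 ± 1.92 TPM, Rab40c 14.5 ± 2.33 TPM and Rab12 12.4 ± 1.17 TPM. Rab23, which restrains Hedgehog signalling, had 9.23 ± 0.697 TPM. Rab44, Rab42 and Rab40b had 2, 1 and 1 counts in all. The namesakes that are not GTPases were both detected, Rab5if at 76.2, 75.3 and 69.5 TPM and Rab3ip at 24.6, 29.5 and 27.4 TPM.

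Many RAB genes come in sets of paralogs that share a role, and the level of each member can be set against the sum of its set. Of 19 such sets, 18 had a member with a mean of 1 TPM or more. The leading member was ahead in all 3 libraries in 17 of them, and in 16 its range did not overlap that of the runner-up. In 9 sets the leader held 90% or more of the summed TPM, and in 3 it held under 60%. The median share of the leader was 87.9%.

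**Figure D2:**
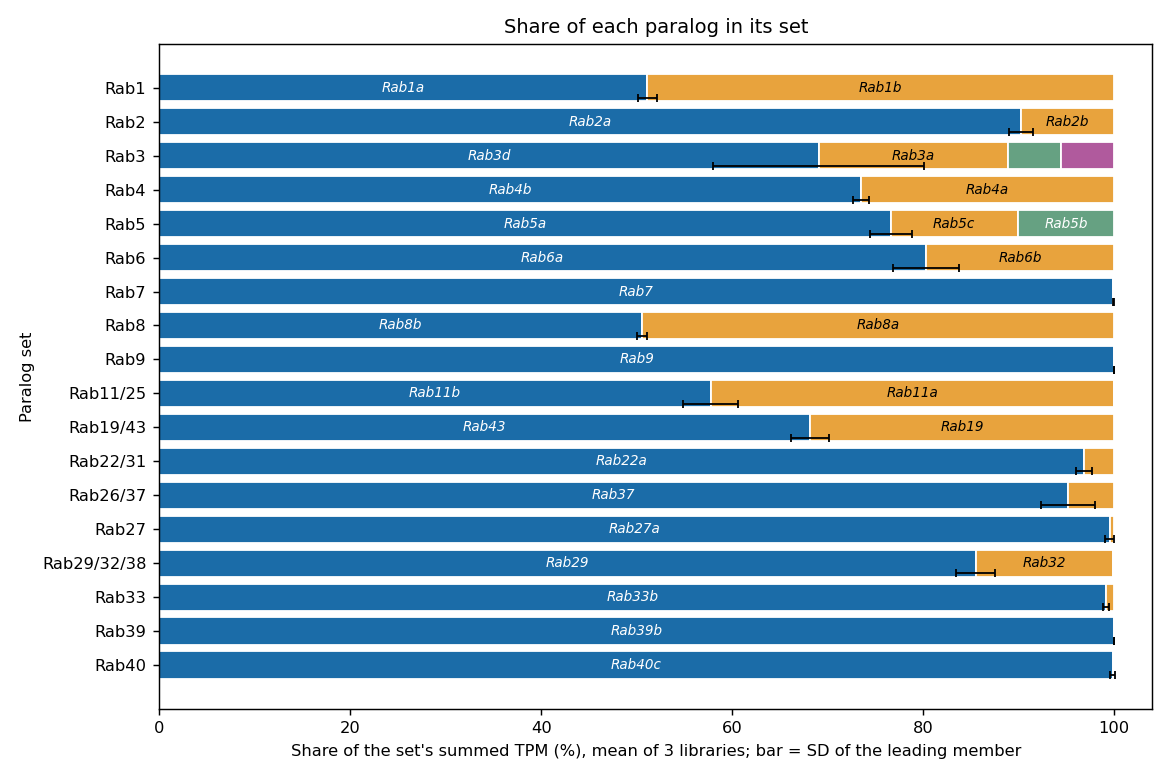
Share of the summed TPM of each paralog set (percent, mean of 3 libraries) held by each member, largest first; the black bar is the SD of the leading member's share, and the unlabelled last segments of the Rab3 set are Rab3b and Rab3c. By TPM, Rab1, Rab8 and Rab11/25 are close to even, whereas Rab7, Rab9, Rab27, Rab33, Rab39 and Rab40 are held almost wholly by 1 member.

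By TPM, the near-even sets were Rab1, Rab8 and Rab11/25. By estimated counts, not scaled for length, Rab1a held 52.1% of its set, Rab8b 64.8% and Rab11b 78.4%, so only Rab1 stayed near even. In TPM, Rab1a held 51.1% ± 0.983 of its set and its range overlapped that of Rab1b, although Rab1a was ahead in all 3 libraries. Rab8b held 50.5% ± 0.514 and was ahead of Rab8a in 2 of 3. Rab11b held 57.7% ± 2.90 against Rab11a, with no overlap of their ranges and Rab25 at 0.

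A second class had 1 clear leader and a companion with a mean above 2 TPM. Rab4b held 73.5% ± 0.867 of the Rab4 set. Rab5a held 76.6% ± 2.22, with Rab5c at 23.4, 31.7 and 20.7 TPM as the runner-up and Rab5b close behind. Rab6a, at 65.2, 68.6 and 52.6 TPM, held 80.3% ± 3.47 against Rab6b at 13.4, 15.5 and 16.3 TPM. Rab43, at 56.0, 50.6 and 55.9 TPM, held 68.2% ± 2.00 against Rab19 at 24.3, 26.1 and 25.3 TPM, 2 Golgi RABs that differ more in sequence. Rab2a held 90.2% ± 1.26 against Rab2b at 17.5, 17.8 and 14.5 TPM, and Rab29 85.5% ± 2.05 of the set with Rab32 and Rab38. Rab3d held 69.1% ± 11.1 of the Rab3 set, the widest SD of these sets. Rab37 held 95.2% ± 2.83 against Rab26 at 1.76, 2.17 and 5.18 TPM.

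In the third class, the companion was near or below 1 TPM. Rab7 held 99.9% ± 0.0527 against Rab7b at 0.220, 0.480 and 0.180 TPM. Rab27a held 99.5% ± 0.488 against Rab27b, its paralog known from platelets and secretory cells, at 0.190, 0 and 0.390 TPM. Rab33b, a Golgi RAB with a role in autophagy, had 26.6, 36.1 and 27.6 TPM and held 99.1% ± 0.298, with Rab33a at 0.270, 0.200 and 0.310 TPM. Rab22a, at 42.4, 40.4 and 36.6 TPM, held 96.9% ± 0.871 against Rab31 at 1.67, 0.890 and 1.33 TPM. Rab40c, which is part of a ubiquitin ligase, had 12.6, 17.1 and 13.9 TPM and held 99.9% ± 0.249 against Rab40b at 0, 0 and 0.0600 TPM. Rab9 and Rab39b, at 3.72, 3.03 and 2.04 TPM, held 100% of their sets, with Rab9b and Rab39 at 0 counts. Only the set of Rab34 and Rab36 had no member with a mean of 1 TPM or more.

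The members of a set differ along the whole coding sequence. Over 30 pairs within the sets, aligned coding sequences were between 61.6% and 78.4% identical, with a median of 73.6%. The most alike pair was Rab6a and Rab6b, whose longest run without a difference was 14 bases, and the longest shared run of any pair was the 38 bases of Rab1a and Rab1b. The assignment uncertainty that the authors deposited, the posterior SD of a count, was at most 0.171% of the count for Rab8b, 0.852% for Rab11b and 0.633% for Rab11a. Of the 59 GTPases, 6 overlap another annotated gene on the same strand, Rab11a, Rab4b and Rab26 among them. On the other strand 15 overlap one, Rab11b, Rab7, Rab5a and Rab10 among them. As the strand setting is not given, counts of such genes are uncertain where they overlap.

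A gene's level does not say how much of it lies on a transcript that can encode the whole GTPase. For each gene the transcripts were therefore counted whose annotated coding sequence is complete, holds loop and tail, and has at least 80% of the length of the gene's longest such sequence. Of 36 members with a mean of 10 TPM or more, 31 had a complete coding transcript in the lead by TPM and 5 did not. The 5 were Rab11b, Rab11a, Rab18, Rab21 and Rab40c. By estimated counts, not scaled for length, a complete transcript led in Rab21, Rab18 and Rab11a. Rab21-201 took 83.2% of counts beside 16.8% for Rab21-202, and Rab18-205 54.0% beside 36.5% for Rab18-201. Rab11a-208 took 33.1% beside 24.9% for Rab11a-206. Rab11b-203 (76.9%) and Rab40c-205 (43.5%), which are not complete, also led by counts. The tally was 30 and 6 with posterior mean TPM, without replicate 1 and without replicate 3, as Rab1a then joined the 5. For 17 of the 36, complete coding transcripts held 90% or more of the gene's TPM, and for 12 under 70%. For the 2 members that are not GTPases, completeness alone was asked.

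**Figure D3:**
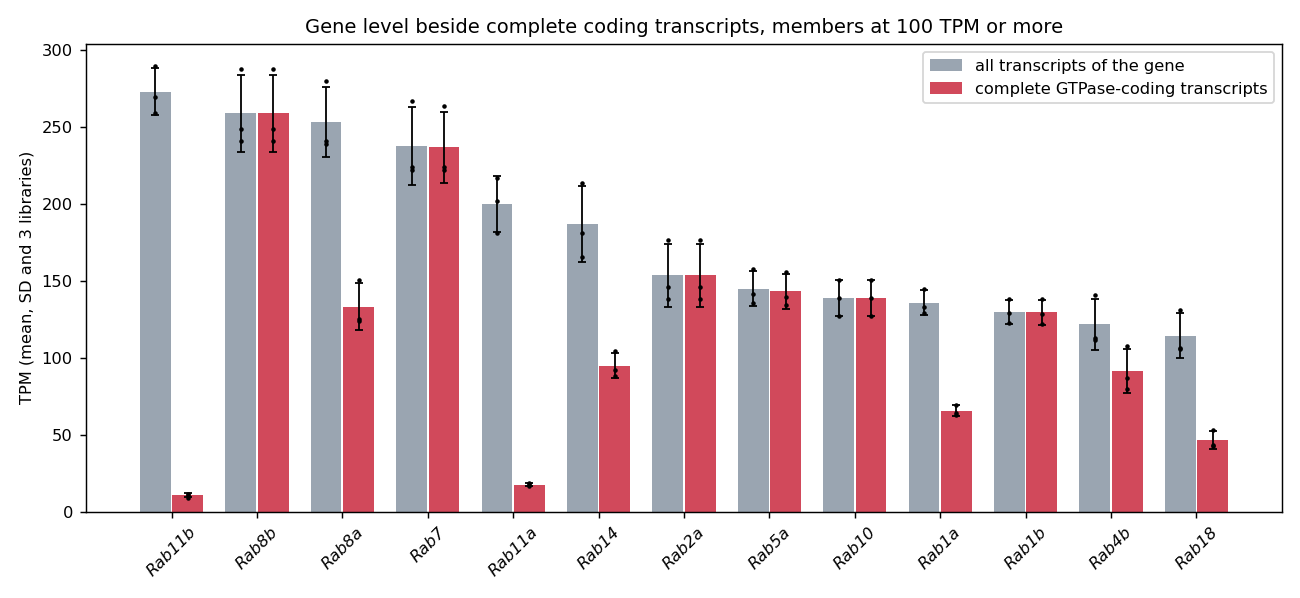
TPM of the 13 members with a mean of 100 TPM or more, over all transcripts (grey) and over complete GTPase-coding transcripts only (red); bars are means of 3 libraries, error bars are the SD and points are the libraries. The bars match for Rab8b, Rab7, Rab2a, Rab5a, Rab10 and Rab1b and lie far apart for Rab11b and Rab11a.

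Rab8b, Rab2a and Rab10 each have a single annotated transcript that encodes the GTPase and therefore kept their whole level. For Rab8a, 2 transcripts shared the level. The coding Rab8a-201, of 4550 bases, had 125, 151 and 124 TPM, and Rab8a-202, a retained-intron transcript of 542 bases, had 106, 129 and 115 TPM, or 46.1% ± 2.03 of the gene's TPM. In estimated counts the picture is more lopsided, because TPM divides by length: Rab8a-201 took 16516 of the gene's 18127 counts over the 3 libraries and Rab8a-202 1585. Counted over complete coding transcripts, Rab8b held 66.1% ± 0.606 of the Rab8 set. With 1 annotated transcript Rab8b could not lose level this way, whereas Rab8a has 3, so this share depends in part on the annotation.

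For Rab1a, the complete coding transcripts held 65.7 ± 3.44 TPM, beside 129.5 ± 8.11 TPM for Rab1b. Counted so, Rab1b led the set with 66.3% ± 2.48 of TPM. By estimated counts, not scaled for length, the leading complete transcripts lay closer together. Rab1a-201 took 4831 of the gene's 7143 counts and Rab1b-201 6484 of 6552. The rest of Rab1a lay mostly on Rab1a-202, a coding transcript with a shorter reading frame, at 54.6, 72.6 and 58.6 TPM.

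Rab11b and Rab11a were the extreme cases. The leading transcript of Rab11b, Rab11b-203 of 1544 bases, had 218, 247 and 218 TPM, or 83.3% ± 2.43 of the gene's TPM, and 9369 of its 12178 estimated counts. The complete Rab11b-201, of 6109 bases, had 11.2, 9.13 and 11.6 TPM. Their coding sequences, of 579 and 654 bases, are the same except for 1 stretch: Rab11b-203 lacks 75 bases, or 25 codons, from position 41 to 115 of the longer one (the flanks repeat, so the ends could also be placed up to 2 bases earlier), and the loop lies inside it, at 52 to 72. The start of both coding sequences on chromosome 17 is shown, with the 75 bases in capitals in the longer one.
Rab11b-201: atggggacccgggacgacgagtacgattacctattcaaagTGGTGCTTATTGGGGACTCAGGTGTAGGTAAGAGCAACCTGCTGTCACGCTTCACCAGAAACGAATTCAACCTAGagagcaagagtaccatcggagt
Rab11b-203: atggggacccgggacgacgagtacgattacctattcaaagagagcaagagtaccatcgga
The reading frame continues after the gap. The 2 transcripts also differ in total length outside the coding sequence, and which difference the estimated split rests on was not tested. The posterior SD of the count was at most 19.4% of the count for Rab11b-201 and 1.91% for Rab11b-203.

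The Rab11a level was spread over shorter transcripts. Its leading transcript, Rab11a-206, of 462 bases, has a complete but shorter coding sequence of 459 bases without a cysteine codon in its last 5, and stood at 83.6, 70.4 and 65.0 TPM. Rab11a-208, of 2336 bases, which encodes the whole GTPase, had 16.4, 18.6 and 18.02 TPM, or 8.91% ± 1.22 of the gene's TPM, but 1112 of its 3363 estimated counts. In TPM, Rab11a-208 was above Rab11b-201 in every library. Over complete coding transcripts Rab11a led the set with 62.5% ± 3.98 of TPM, where over all transcripts Rab11b led. By estimated counts, not scaled for length, the complete Rab11b-201 was ahead, with 1781 over the 3 libraries beside 1112 for Rab11a-208. The whole-number counts of a second gene table deposited by the authors, made on an older annotation and not scaled for length, were 95, 87 and 94 for Rab11b and 629, 573 and 520 for Rab11a. In the same table Rab8b had 590, 576 and 546 counts and Rab8a 927, 922 and 863. Over the 3 libraries the first table gave 12178 estimated counts to Rab11b and 33390.4 to Rab8b. It gave 12644 to Rab7, which had 250, 244 and 239 counts in the second table. Rab5b had 1366 in the first and 29, 38 and 19 in the second. For Rab2a the gap was smaller, with 8801 beside 827, 857 and 790. All counts of the second table summed to 5110680, 4812984 and 4579836 in replicates 1, 2 and 3. Those of the first summed to 16251564, 14878641 and 14152590, so raw counts of the 2 tables are not on the same scale. The cause of the gap between the tables was not tested. Which member leads the Rab1, Rab8 and Rab11/25 sets thus depended on the table or on the transcripts counted, and for the other 15 sets the leader was the same in all of them.

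Rab6a shows a different kind of choice, between 2 complete coding sequences of equal length. Rab6a-201 had 50.7, 51.7 and 40.6 TPM, or 76.7% ± 1.31 of the gene's TPM, and Rab6a-202 7.07, 0 and 3.24 TPM. Both have 624 coding bases and differ at 30 bases in 24 codons, all between positions 184 and 279. That stretch (chromosome 7) is shown for both, with the bases that differ in capitals.
Rab6a-201: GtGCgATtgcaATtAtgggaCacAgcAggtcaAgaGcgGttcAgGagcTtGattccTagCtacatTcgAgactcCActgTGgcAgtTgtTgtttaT
Rab6a-202: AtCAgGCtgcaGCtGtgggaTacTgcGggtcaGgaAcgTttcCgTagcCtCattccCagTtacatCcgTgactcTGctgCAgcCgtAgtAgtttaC
Rab6a-202 was at 0 in replicate 2, and the posterior SD of its count reached 75.2% of the count, so its level is not fixed by these libraries. For Rab7, 2 complete coding transcripts held most of the level, Rab7-204 with 107, 146 and 97.8 TPM and Rab7-205 with 90.2, 68.1 and 91.0 TPM. The posterior SD reached 13.9% and 13.4% of their counts. Rab7-201 and Rab7-203, also complete, followed with means of 25.2 and 9.32 TPM. Complete coding transcripts held 99.6% of the Rab7 level in all. For Rab27a, the complete coding share was 80.5% ± 1.47, and for Rab23 12.6% ± 3.24.

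The genes that load, switch and read RAB proteins were also present. Of the 6 genes reported for prenylation, escort and recycling, 5 had 1 TPM or more in every library. Gdi2, the widely expressed GDP dissociation inhibitor, stood at 327, 364 and 343 TPM, the highest of the list in every library. Rabggta and Rabggtb, the subunits of the enzyme that attaches the lipid, had 70.2, 84.0 and 74.3 TPM and 22.2, 21.3 and 26.2 TPM. Chm, the escort protein that presents RABs to that enzyme, had 20.5, 17.3 and 18.5 TPM, and its relative Chml 0.650, 0.260 and 0.580 TPM. Rabif, which stabilises nucleotide-free RABs, had 25.01, 34.8 and 25.9 TPM.

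**Figure D4:**
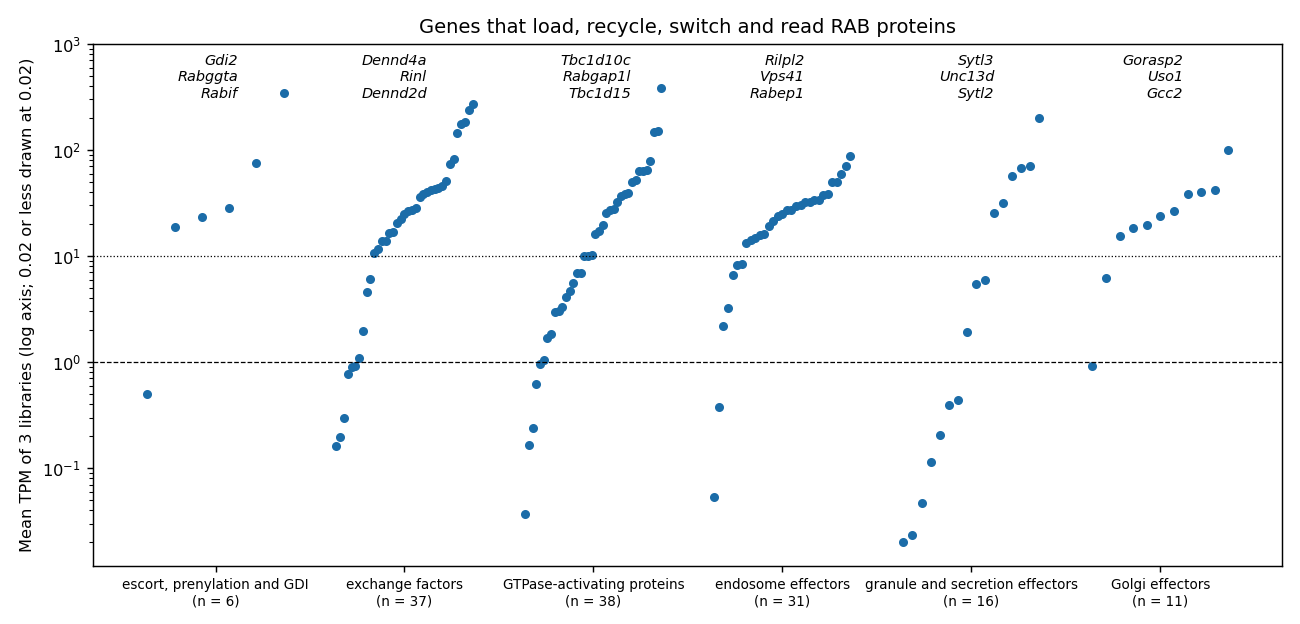
Mean TPM over 3 libraries (log axis) of each gene of the 6 lists of RAB regulators and effectors, ordered by level within a list; the 3 highest of each list are named from the top, and dashed and dotted lines mark 1 and 10 TPM. The list of granule and secretion effectors reaches furthest down, with 7 of 16 genes under 1 TPM.

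Of 37 exchange factor genes, 31 had 1 TPM or more in every library. Dennd4a, an exchange factor for Rab10, was highest at 283, 248 and 280.1 TPM, followed by Rinl, which acts on RABs of the Rab5 family, at 255, 207 and 256 TPM and Dennd2d at 191, 174 and 185 TPM. The 3 libraries of Dennd4a and Rinl overlapped. Of 38 genes of GTPase-activating proteins for RABs, 32 had 1 TPM or more in every library. Tbc1d10c, called carabin and known from lymphocytes, led with 341, 450.1 and 361 TPM and lay above Rabgap1l, at 154, 161 and 135 TPM, and Tbc1d15, an activator of Rab7 hydrolysis, at 149, 161 and 134 TPM.

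Effector genes were detected in all 3 lists. Of 31 endosome effector genes, 29 had 1 TPM or more in every library. Rilpl2, a relative of the Rab7 effector Rilp, had 91.6, 88.8 and 84.3 TPM, Vps41, a subunit of a late endosome tether, 69.2, 80.9 and 62.0 TPM and Rabep1, a Rab5 effector, 57.0, 65.1 and 57.5 TPM. Rilp itself had 2 counts in all. Of 11 Golgi effector genes, 10 passed that level: Gorasp2, which binds Rab2, had 91.1, 108 and 103 TPM, the tether Uso1, which binds Rab1, 36.2, 49.2 and 41.8 TPM and the golgin Gcc2 38.8, 41.3 and 40.8 TPM. Of 16 granule and secretion effectors, 9 passed. The Rab27 effector Sytl3 stood at 196, 208 and 201 TPM, Unc13d, which encodes the Rab27a partner Munc13-4 of granule priming, at 65.7, 73.8 and 72.4 TPM and Sytl2 at 64.1, 64.2 and 73.4 TPM. Of further Rab27 effectors, Rph3al, Sytl1 and Exph5 had 5.98 ± 0.881, 5.43 ± 0.416 and 1.92 ± 0.385 TPM, and Mlph, Sytl4, Sytl5 and Myrip were under 1 TPM. The shares at 1 TPM or more were 83.3%, 83.8%, 84.2%, 93.5%, 56.2% and 90.9% for escort genes, exchange factors, activating proteins, endosome, granule and Golgi effectors, beside 45.5% of all protein-coding genes.

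The 3 libraries differed beyond counting noise for many genes, members included. Among the 41 members with 1 TPM or more in every library, 26 (63.4%) were highest in replicate 2, beside 48.8% of all such protein-coding genes. The median coefficient of variation of these members was 9.84%, beside 10.4% over all such protein-coding genes. A chi-square test of homogeneity on the counts, over all genes with at least 30 counts and with Benjamini-Hochberg adjustment at 0.05, called 31 of 45 members tested (68.9%), beside 57.2% of all genes. So large a share of all genes differed that the members' count sets them little apart. After division of the statistic by its median inflation over all genes, 6.45, the test called 4 of 45 members (8.89%), beside 4.45%. The 4 were Rab8b, Rab8a, Rab2a and Rab14, which are among the members with the most counts and were each highest in replicate 2. Without replicate 2, the uncorrected test called 10 of 44 members, or 22.7%, beside 27.5% of all genes.

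The widest ratios between libraries among called members belonged to genes with few counts. Rab3c had 25, 6 and 41 estimated counts in replicates 1, 2 and 3, Rab3a 11, 39 and 27 and Rab31 57, 27 and 40. Rab39b had 124, 90 and 60 counts and Rab3d 275, 164 and 250. The ratio of highest to lowest scaled count was 6.84 for Rab3c, 3.96 for Rab3a, 1.89 for Rab31, 1.85 for Rab39b and 1.53 for Rab3d. None of these 5 was called after the division. Rab27a had the narrowest ratio, 1.02, and was called by neither version of the test.

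Of the 59 GTPases, 48 had a promoter window of 300 bases, from 250 before to 50 after the gene start, in the RefSeq table on GRCm38.p6. The dinucleotide CG occurred with a median of 24.5 per window in the 34 members with 1 TPM or more in every library and of 15 in the other 14, beside 22 and 5 over all protein-coding genes with a window. At least 15 were found in 28 of 34 (82.4%) and 7 of 14 (50%), beside 75.0% and 25.2%. In the Rab11/25 set, the window of Rab11a held 16 and that of Rab11b 12, beside 9 for Rab25, at 0 counts. In the Rab9 and Rab39 sets, each also with a member at 0 counts, the order was the opposite. The window of Rab9, at 21.2 ± 2.23 TPM, held 9 and that of Rab9b, at 0 counts, held 17. That of Rab39b, at 2.93 ± 0.844 TPM, held 10 and that of Rab39, at 0 counts, held 27. Some windows lay off the GENCODE gene start, that of Rab9b by 199 bases and that of Rab17 by 1994. The box TATAAA, searched on both strands, was in 2 of the 34 windows and 2 of the 14, beside 6.43% and 18.9% of all windows.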

How the data were processed

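PolyA RNA-seq of 1 mouse gave 3 libraries, kept as technical replicates by the number in the labels. The authors deposited, per the file headers, a gene and a transcript table per library with expected counts (estimated counts, in which ambiguous reads are shared out), TPM, FPKM, the percent of a gene held by each transcript, a posterior mean TPM and the posterior SD of each count. A second deposited gene table, on GENCODE M4, holds whole-number counts. The labels give mm10, and gene identifiers matched GENCODE M21 for the first tables. No source used here gives the quantifier, its version or the strand setting. Rows naming no mouse gene (0.188%, 0.579% and 0.240% of counts) were left out.

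Members were found by symbol, and compartments, paralog sets and machinery lists were assigned by hand. Members and lists were chosen with earlier results of these data known. All members are accounted for. Per-library values are given for the highest member of each compartment, the 2 highest of each paralog set with a mean of 1 TPM, called members with the 5 widest library ratios, the escort genes and the 3 highest of each other machinery list. Genes named beyond this were chosen after their values were seen. Of the genes first listed, 2 are not reported here. Levels carry no test. The chi-square test used rounded expected counts and TMM effective library sizes (edgeR 4.0.16, R 4.3.3), with DESeq2 1.42.0 size factors as an alternative. The test was tried on data simulated with counting noise only. That trial does not cover the wider spread of these libraries. Coding sequences were cut from GENCODE M21 transcripts and aligned with Biopython 1.88 (match 1, mismatch -1, gap opening -5, extension -1). Python 3.11.15, scipy 1.17.1 and statsmodels 0.14.6 did the rest. The restriction to complete coding transcripts, and the compartment shares by estimated counts, were added after seeing the data. Other settings were other units, detection limits, scalings and count minimums, and leaving out each library.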

Additional observations from a re-analysis of the deposited data

How the results depend on the processing

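Detection held under every setting tried. Against 41 members at 1 TPM or more in every library, the count was between 39 and 45 under other units, limits of 0.5 and 2 TPM, the second table and complete coding transcripts, and 41 to 42 without each library. The members' median of 17.5 TPM moved to 16.1 with posterior mean TPM, 10.7 FPKM and 12.1 TPM over complete coding transcripts, and was 17.4 to 17.6 without each library. The median share of the leading paralog, 87.9%, moved to 86.3% with posterior mean TPM, 85.4% with CPM, 89.2% in the second table and 88.4% over complete coding transcripts, and was 87.6% to 88.0% without each library. The leader changed in 2 of 18 sets in the second table, where Rab8b held 38.7% and Rab11b 13.9%. It also changed in 2 by the TPM of complete coding transcripts, where Rab1a held 33.7% and Rab11b 37.5%. The leader changed in no set under the other settings. The median share of the leading transcript, 76.4%, moved to 71.6% with posterior mean TPM and was 76.6% to 77.7% without each library. The library test called 7973 genes (57.2%) and 31 of 45 members (68.9%). In the second table it called 2804 genes (27.2%) and 6 of 42 members (14.3%), so there the members' share was the lower one. After division by the inflation it called 621 genes (4.45%) and 4 of 45 members (8.89%). Without replicates 1, 2 and 3 in turn it called 43.8%, 27.5% and 42.3% of genes, 3546 to 5516. The members called were then 25, 10 and 25 of 44, or 56.8%, 22.7% and 56.8%. The second table holds fewer counts and other genes, and beyond that the causes were not tested. No paired analysis was possible because the 3 libraries form 1 group. Depth limits members with few counts: 16 GTPases had under 30 counts in all.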
